A study of Homo sapiens with 12 samples.

Results

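HOX genes encode homeobox transcription factors that give cells along the body axis their positional identity, and they lie in the HOXA, HOXB, HOXC and HOXD clusters on human chromosomes 7, 17, 12 and 2. Within a cluster the order of the genes matches the order in which they are switched on from head to tail, so that low paralog numbers (the 3′ end of the cluster) mark anterior tissue and high numbers (the 5′ end) mark posterior and limb tissue. Adult cells often keep a fixed set of active HOX genes, held silent elsewhere by Polycomb complexes and active by MLL complexes, and tumor cells can keep or change that set. Members were the rows of the deposited table whose symbol is HOXA, HOXB, HOXC or HOXD followed by digits alone. Described here are 36 of them, among 18798 genes, with 9 HOXA, 10 HOXB, 8 HOXC and 9 HOXD genes. HOXA10 and HOXC5 were among those not analysed here.

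The study sequenced RNA of 3 established cell lines of intrahepatic cholangiocarcinoma (ICC), a cancer of the bile ducts inside the liver. HuH-28, RBE and SSP-25 cells were transfected with control (scrambled) siRNA or with siRNA against LKB1 (STK11), a kinase that activates AMPK and is lost in several cancers, and RNA was taken 48 h later. Each of the 6 groups had 2 libraries, 12 in all, and each line stands for 1 tumor. HuH-28 was grown in MEM and the other lines in RPMI1640, so that line and medium cannot be told apart. Nothing in the labels says that replicates were separate cultures, and the p-values measure the spread between these libraries, which may be technical.

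Values are the authors' normalized signal, reads per kilobase of gene, which can be compared between genes per length but whose read depth is unknown. The summed signal was 9910000 to 11730000 per library. Over the HOX rows, 160 of 432 values lay below 0.05 and the next lowest value was 0.324, and values below 0.05 are called near 0 here. STK11 signal was 698 and 600 with control siRNA and 223 and 206 with LKB1 siRNA in HuH-28. RBE had 485 and 430 against 130 and 156, and SSP-25 had 464 and 459 against 61.8 and 72.8. The targeted gene was thus lower with LKB1 siRNA in all libraries of each line. All 3 lines held KRT7, a keratin of bile ducts (2406 to 14978 over the libraries). KRT19 and EPCAM, also markers of biliary epithelium, were high in RBE (9489 to 11826 and 296 to 447), but KRT19 was 9.86 to 17.3 and EPCAM 0.026 to 1.31 in HuH-28. Of the hepatocyte genes, ALB did not exceed 1.34 in any library, but RBE held SERPINA1 (1113 to 1553), TTR (7.86 to 18.7) and TF (4.08 to 25.4).

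The lines carried different HOX codes with control siRNA, and the HOXB cluster was the part they shared most. A gene was counted as detected where both control libraries of the line had a signal of at least 1. On that count 10 of the 36 genes were on in HuH-28, with 13 for RBE and 26 for SSP-25. HOXB3, HOXB4, HOXB5, HOXB6 and HOXB9 were detected in all 3 lines. Another 12 genes were detected in SSP-25 and in neither other line, 4 (HOXC4, HOXC6, HOXC13 and HOXD3) in RBE alone, and none in HuH-28 alone. HOXA4, HOXB1, HOXC10, HOXC11, HOXC12 and HOXD4 were detected in no line, and HOXC11 and HOXC12 were near 0 in all 12 libraries.

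**Figure D1:**
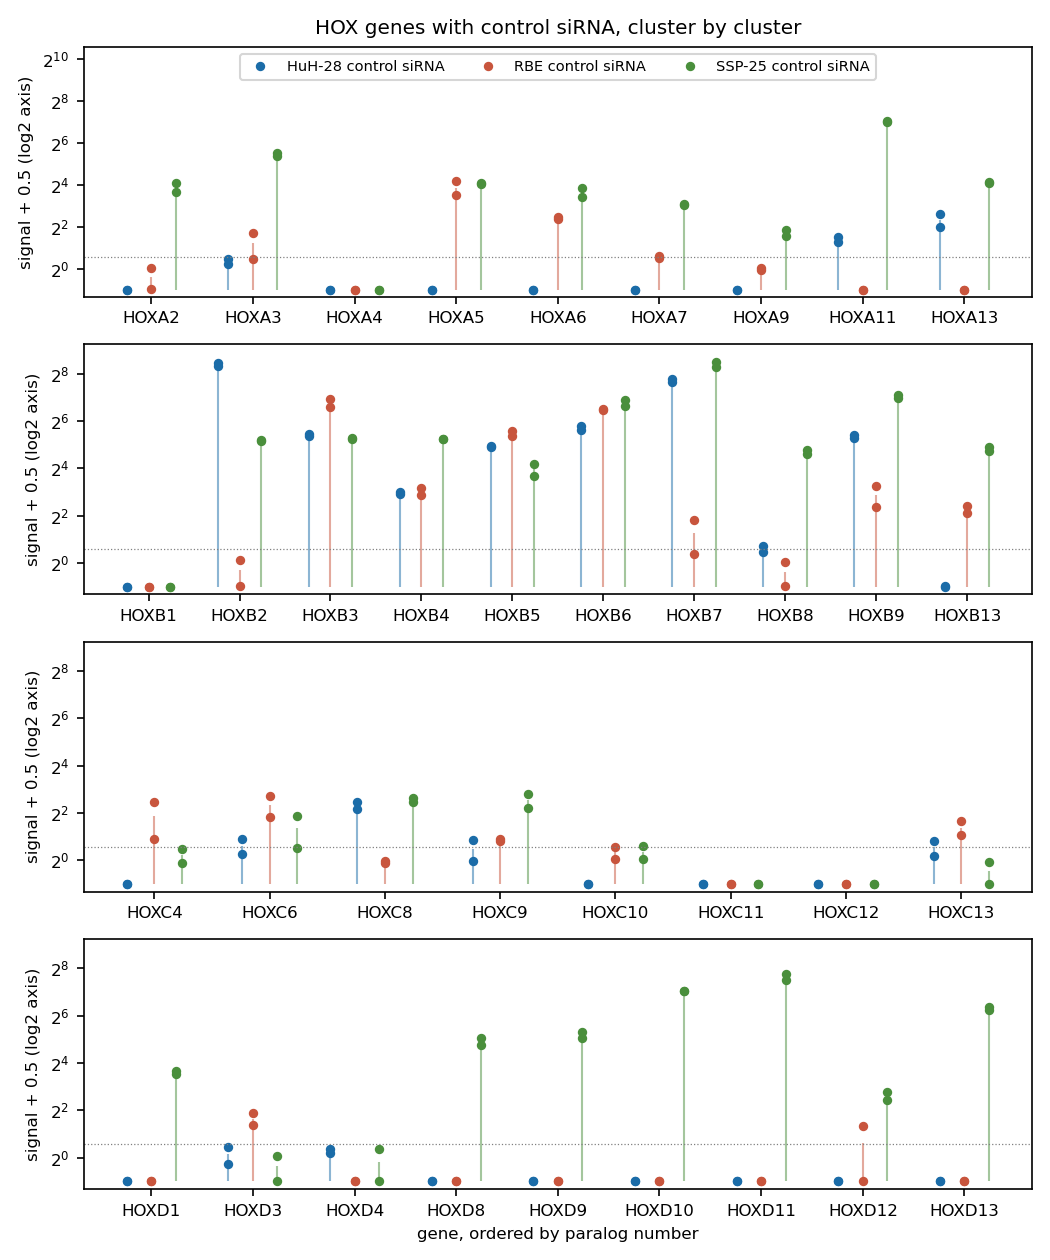
Signal plus 0.5 (log2 axis) of the 36 HOX genes in the 2 control siRNA libraries of each line, 1 panel per cluster with genes ordered by paralog number along the x axis. Points are libraries, vertical lines reach the mean and the dotted line marks a signal of 1. SSP-25 holds HOXA, HOXB and HOXD genes, HuH-28 mainly HOXB genes, and HOXC points stay low in every line.

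The HOXB cluster carried 97.8% ± 0.38 (SD, n = 2) of the summed HOX signal in HuH-28 and 87.2% ± 0.65 in RBE, but 50.1% ± 1.77 in SSP-25. In SSP-25 the HOXD cluster carried 32.9% ± 1.86 and the HOXA cluster 16.1% ± 0.14. The summed signal of all HOX genes was 731 and 731 in the control libraries of HuH-28, 326 and 275 for RBE and 1508 and 1492 for SSP-25. The libraries of the 3 lines thus did not overlap, and RBE had the lowest and SSP-25 the highest sum. By position in the cluster, paralog groups 1 to 3 carried 51.5% of the HuH-28 sum, 37.3% of the RBE sum and 9.53% of the SSP-25 sum. Groups 9 to 13 carried 6.59%, 5.59% and 50.8%, so that the posterior share was high in SSP-25.

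In HuH-28 the leading genes were HOXB2 (315 and 351), a hindbrain and neural crest gene, and HOXB7 (220 and 201), which is often raised in carcinomas. HOXB6 followed with 54.9 and 48.4, HOXB3 with 42.9 and 40.5 and HOXB9 with 41.3 and 37.7. HOXB13, the prostate and hindgut gene at the 5′ end of the cluster, was near 0. Outside HOXB, HuH-28 held only low values. HOXA13, a gene of the distal limb and hindgut, had 5.69 and 3.51, HOXA11 had 1.93 and 2.41 and HOXC8 had 4.02 and 4.98. In the HOXD cluster 7 of 9 genes were near 0 in both libraries and no gene was detected.

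In RBE the code centred on the middle of HOXB. HOXB3 had 119 and 95.5, HOXB6 had 90.7 and 87.6 and HOXB5 had 47.5 and 41. HOXB2, the first gene of HuH-28, had 0.591 and 0.0125 in RBE, and HOXB7 had 2.98 and 0.785. RBE thus had high signal at HOXB3, HOXB5 and HOXB6, less at HOXB4 between them (8.6 and 6.74), and little at HOXB2 and HOXB7 on either side. HOXA5, known for lung development, had 17.4 and 10.8 and HOXA6 had 4.77 and 5.1, while HOXA11 and HOXA13 were near 0. HOXD3 (2.09 and 3.18) was the only HOXD gene detected.

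In SSP-25 the HOXB, HOXD and HOXA clusters each held genes above 100. HOXB7 had 309 and 363, HOXB9 had 135 and 124 and HOXB6 had 116 and 97.5. HOXA11, a gene of limb, kidney and uterus development, had 128 and 129, and HOXA3 had 44.6 and 40.7. The HOXD genes on the 5′ side stood out, with 216 and 183 for HOXD11, 133 and 130 for HOXD10 and 82.1 and 74.8 for HOXD13. These 3 genes pattern the limb and the urogenital tract in development. HOXD11, HOXD10 and HOXD13 were near 0 in all 8 libraries of HuH-28 and RBE. HOXD3 and HOXD4, at the other end of the cluster, did not exceed 0.775 in the SSP-25 control libraries, and HOXD1 had 12.3 and 11.2, so that HOXD1 and the genes from HOXD8 on were detected with a stretch below 1 between them.

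The HOXC cluster was low in every line. Its highest mean was 4.50 (HOXC8) in HuH-28, 4.55 (HOXC6) for RBE and 5.40 (HOXC8) for SSP-25. HOX genes were moderate to low among all genes. Even HOXB7 in SSP-25, the highest mean of any member and line, exceeded only 70.7% of all rows of the table in that line, and HOXB2 in HuH-28 exceeded 69.9%.

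The RefSeq start regions of HOXD13, HOXD11 and HOXD10 are printed because these genes were high together in SSP-25 and near 0 in the other lines. Each window runs from 250 bases before to 50 bases after the start site, 5′ to 3′ on the gene's strand, which is the forward strand of GRCh38.p14 for all 3, and capitals mark the dinucleotide CG, where DNA methylation occurs.
HOXD13 (chr2:176092471-176092770): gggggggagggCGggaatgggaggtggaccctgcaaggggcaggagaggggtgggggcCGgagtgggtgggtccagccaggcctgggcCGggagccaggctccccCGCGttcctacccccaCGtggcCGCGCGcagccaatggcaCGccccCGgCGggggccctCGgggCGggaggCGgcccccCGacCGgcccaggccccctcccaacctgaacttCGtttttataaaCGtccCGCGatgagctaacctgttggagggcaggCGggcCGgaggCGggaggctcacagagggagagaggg
HOXD11 (chr2:176107030-176107329): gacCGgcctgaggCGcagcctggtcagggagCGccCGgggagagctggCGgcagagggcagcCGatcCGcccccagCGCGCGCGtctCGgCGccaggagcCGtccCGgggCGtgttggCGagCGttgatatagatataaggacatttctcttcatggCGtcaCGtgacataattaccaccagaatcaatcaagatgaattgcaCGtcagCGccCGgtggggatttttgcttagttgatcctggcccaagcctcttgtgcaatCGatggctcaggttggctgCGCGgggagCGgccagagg
HOXD10 (chr2:176116528-176116827): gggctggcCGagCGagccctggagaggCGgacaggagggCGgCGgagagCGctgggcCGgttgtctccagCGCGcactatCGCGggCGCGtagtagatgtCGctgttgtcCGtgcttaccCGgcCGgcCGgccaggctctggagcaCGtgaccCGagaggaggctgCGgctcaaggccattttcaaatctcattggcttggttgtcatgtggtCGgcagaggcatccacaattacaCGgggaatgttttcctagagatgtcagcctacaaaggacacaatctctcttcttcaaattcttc
HOXD13 held 24 CG pairs in its window, HOXD11 held 27 and HOXD10 held 23. The table of RefSeq windows matched 18 HOX genes with 24 windows, whose median was 22.5 CG pairs, against 14 over all 35116 windows. The TATA word TATAAA, searched on both strands, was in 12.5% of HOX windows and 11.5% of all windows. The word TTTATG, the core bound by caudal (CDX) factors, was in 12.5% and 10.6% on the same search. Both words hold TTTAT on one strand or the other, and HOXD13 was the only one of the printed windows with either word (TATAAA). No methylation was measured in these samples.

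Across lines, 29 of 32 tested HOX genes passed the limma F test for a difference with control siRNA (Benjamini-Hochberg adjusted p below 0.05), against 90.5% of all 16146 genes tested. The HOX share of 90.6% was thus near that of all genes. HOXA4, HOXC10 and HOXC13 did not pass. HOXB1, HOXC11, HOXC12 and HOXD4 were too low to test, since a signal of at least 1 in 2 libraries was required. Of the 32 genes, 11 met this requirement only with the help of SSP-25 libraries and 3 only with that of RBE. The requirement favours a difference between lines for such genes, and the counts between lines include them.

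Between HuH-28 and RBE, 18 of 32 HOX genes passed, against 77.3% of all genes tested, with 7 higher in HuH-28 (39.2% of all genes) and 11 higher in RBE (38.1%). HOXB2 differed by 8.80 ± 0.29 on the log2(signal + 0.5) scale (SE, adjusted p = 1.26e-09, limma) and HOXB7 by 6.64 ± 0.34 (adjusted p = 3.45e-08), both higher in HuH-28. HOXA5 was higher in RBE, with -4.82 ± 0.27 for HuH-28 minus RBE (adjusted p = 7.07e-08, limma). HOXB4, at 7.54 and 7.12 against 8.6 and 6.74, overlapped between these lines.

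Between HuH-28 and SSP-25, 24 HOX genes passed (74.8% of all genes), 22 of them lower in HuH-28 (36.8% of all genes) and 2 higher (38%). HOXB2 (3.19 ± 0.29) and HOXB5 were the 2 that were higher in HuH-28. HOXB13 differed by -5.80 ± 0.29 (adjusted p = 3.60e-08, limma) and HOXA11 by -5.60 ± 0.31 (adjusted p = 6.68e-08), both lower in HuH-28. HOXD10, HOXD11 and HOXD13 met the signal requirement through SSP-25 alone, so that their test was fixed by it and is not given. HOXB3, HOXB7 and HOXC8 were among those that did not pass, although a difference below the spread cannot be taken as equality.

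Between RBE and SSP-25, 26 HOX genes passed (73.1% of all genes), 22 of them lower in RBE (37.2% of all genes) and 4 higher (35.9%). HOXB3, HOXB5 and HOXC13 were higher in RBE. The other gene of the 4, HOXD3, met the signal requirement through RBE alone, so that its test was fixed by it. HOXB7 differed by -7.31 ± 0.34 (adjusted p = 2.30e-08, limma) and HOXA13 by -5.10 ± 0.31 (adjusted p = 1.68e-07). As a description over the 36 members, Spearman's rho between mean control levels was 0.52 for HuH-28 and RBE, 0.55 for HuH-28 and SSP-25 and 0.27 for RBE and SSP-25. Over the 16146 genes tested it was 0.82, 0.87 and 0.88. All points of a pair come from the same 2 libraries per line, and many members are near 0 in both lines.

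After LKB1 siRNA 17 calls were made over the 3 lines taken singly, 14 of them rises, of which 10 were in genes detected with control siRNA in that line. Rises were thus 82.4% of the HOX calls, and 51.0% of the calls over all genes in the same comparisons. HOXA4, with 2 of these rises, reached a signal of 1 with LKB1 siRNA only, and had to differ. The summed signal of all HOX genes was 1046 and 1046 with LKB1 siRNA against 731 and 731 in HuH-28. In RBE it was 429 and 378 against 326 and 275, and in SSP-25 1634 and 1736 against 1508 and 1492. The LKB1 siRNA sums lay above the control sums in each line. The HOXB sum accounted for most of this. It was 1026 and 1027 against 717 and 712 in HuH-28, and 371 and 327 against 283 and 241 in RBE. The HuH-28 rise lay mainly in HOXB2 (554 and 575 against 315 and 351), which did not pass there, while HOXB4 was lower. In SSP-25 the HOXB sum was 870 and 914 against 737 and 766, while the HOXA sums overlapped, 234 and 274 against 244 and 239. As these are bulk samples, a change in the number of expressing cells and one in RNA per cell cannot be told apart.

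**Figure D2:**
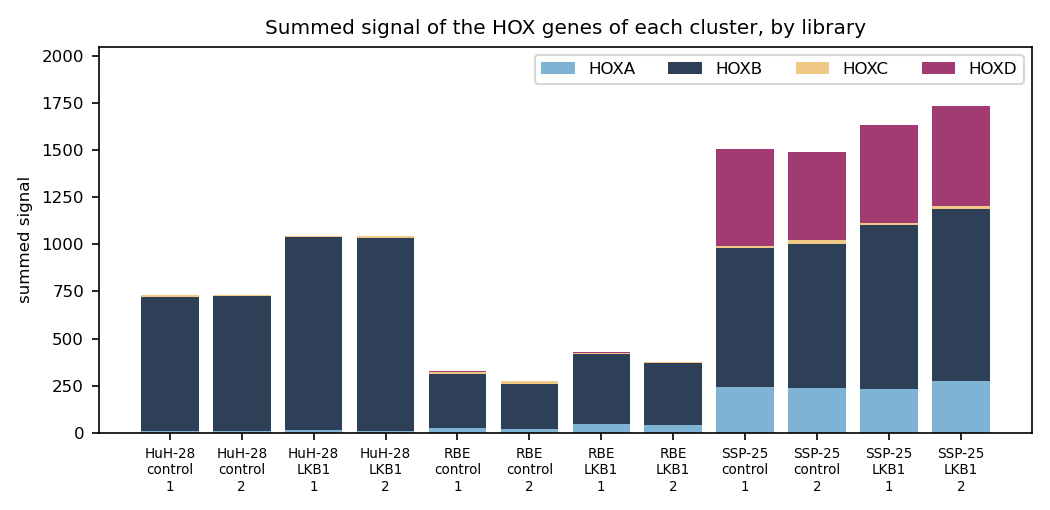
Summed signal of the HOX genes of each cluster (stacked bars from 0) in each of the 12 libraries, by line, siRNA and replicate number. HuH-28 and RBE bars are mostly HOXB, SSP-25 bars hold HOXA, HOXB and HOXD, and the LKB1 siRNA bars of HuH-28 reach 1046 against 731.

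In HuH-28, 2 of 32 HOX genes passed by limma (5 at an unadjusted p below 0.05), against 29.7% of all genes tested. Both were higher with LKB1 siRNA, where 14.3% of all genes were higher and 15.5% lower. The siRNA groups did not overlap for 13 of 32, against 57.1% of all genes. HOXB9, a posterior gene raised in several carcinomas, rose from 41.3 and 37.7 to 75.3 and 70.5, 0.88 ± 0.24 on the log2 scale (adjusted p = 0.022, limma). HOXA13 rose from 5.69 and 3.51 to 11.3 and 8.17 (1.02 ± 0.31, adjusted p = 0.035). HOXB2, the leading gene, had 315 and 351 with control siRNA and 554 and 575 with LKB1 siRNA, groups far apart, but did not pass (0.76 ± 0.29, adjusted p = 0.079). Its pooled spread includes RBE libraries with values of 0.0125 to 1.31, whose part in the missed call was not tested. With each line fitted alone HOXB2 passed (adjusted p = 0.026), as it did with a pseudocount of 1 (0.019). HOXB4 went the other way, 7.54 and 7.12 against 4.79 and 4.62 (-0.59 ± 0.20, adjusted p = 0.051). The count was 0 without LKB1 siRNA replicate 1 of HuH-28 (4 at an unadjusted p below 0.05, limma) or control replicate 2 (2 at that level). It was 1 without either other HuH-28 library or either SSP-25 control library, and 3 without any 1 RBE library. HOXB9 lost its call without any 1 of the 4 HuH-28 libraries (adjusted p = 0.057 to 0.092). HOXA13 lost it without LKB1 siRNA replicate 1, control replicate 2 or either SSP-25 control library (0.052 to 0.19).

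In RBE, 9 of 32 passed (40.6% of all genes), 7 higher (22.1% of all genes) and 2 lower (18.6%). The siRNA groups did not overlap for 14 of 32, against 72.3% of all genes. HOXA6, a middle gene of the cluster, rose from 4.77 and 5.1 to 16.1 and 15.8, 1.60 ± 0.30 on the log2 scale (adjusted p = 0.002, limma). Its neighbour HOXA5 rose from 17.4 and 10.8 to 26.1 and 22 (0.78 ± 0.27, adjusted p = 0.045). HOXB3, the most abundant HOX gene of this line, rose from 119 and 95.5 to 153 and 140 (0.45 ± 0.12, adjusted p = 0.013). HOXB4 rose from 8.6 and 6.74 to 13.4 and 10.2 (0.59 ± 0.20, adjusted p = 0.040), and HOXB6 from 90.7 and 87.6 to 128 and 103 (0.36 ± 0.13, adjusted p = 0.0498). The other 4 calls rested on values at or below 1.37. HOXB2 had 0.591 and 0.0125 against 1.24 and 1.31, HOXA4 had values near 0 against 0.575 and 1.19, HOXC9 had 1.24 and 1.37 against 0 and 0.0063, and HOXA7 had 0.947 and 1.05 against 0 and 0.524. HOXA4 cleared the low-signal requirement only through LKB1 siRNA libraries, and it therefore had to differ. HOXA6 and HOXB2 kept the call whichever library was left out. HOXB3 lost it without control replicate 2 or LKB1 siRNA replicate 1 of RBE (adjusted p = 0.12 and 0.092, limma), which each left 3 calls in all. HOXC9 lost it without any 1 RBE library (up to 0.096) and HOXA4 without either RBE control (up to 0.055). HOXA4 was also too low to test without LKB1 siRNA replicate 2 of RBE or of SSP-25. HOXB4 lost it without the same 2 RBE libraries as HOXB3 or either SSP-25 control (up to 0.24), and HOXA5 without these or LKB1 siRNA replicate 2 of RBE (up to 0.30). HOXA7 lost it without either RBE control, LKB1 siRNA replicate 1 of RBE or control replicate 2 of SSP-25 (up to 0.24). HOXB6 lost it without any RBE library other than LKB1 siRNA replicate 2 or any HuH-28 or SSP-25 library with LKB1 siRNA (up to 0.33). With RBE fitted alone, 3 HOX genes passed.

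In SSP-25, 6 of 32 passed (42.2% of all genes), 5 higher (21.1% of all genes) and 1 lower (21.1%). The siRNA groups did not overlap for 23 of 32, against 73.9% of all genes. HOXB5, a gene of lung and gut development, rose from 12.3 and 17.7 to 55.3 and 45.1, 1.72 ± 0.18 on the log2 scale (adjusted p = 4.3e-05, limma). HOXB8, a middle gene with roles in blood precursors, rose from 26.9 and 23.9 to 54.1 and 59.8 (1.15 ± 0.35, adjusted p = 0.024). HOXB3 rose from 38.7 and 37.3 to 53.2 and 59.5 (0.56 ± 0.12, adjusted p = 0.0042). HOXD8, the most 3′ gene of the active HOXD block, fell from 32.5 and 26.7 to 14.7 and 19 (-0.80 ± 0.28, adjusted p = 0.041). Its neighbours HOXD9 (32.6 and 39.5 against 48.9 and 52.9) and HOXD10 (133 and 130 against 169 and 185) had higher values with LKB1 siRNA without passing (adjusted p = 0.15 and 0.16). HOXD13 was 82.1 and 74.8 against 82.9 and 73.5. HOXD12 of the same block was lower in both LKB1 siRNA libraries (6.41 and 4.94 against 0.040 and 2.28) without passing. HOXC13 (0.451 and near 0 against 3.01 and 1.93) and HOXA4 (near 0 against 0.688 and 1.44) passed at low values. HOXB3 and HOXB5 kept their calls without any 1 library. HOXA4 kept its call without each of 10 libraries and was too low to test without LKB1 siRNA replicate 2 of RBE or of SSP-25. HOXD8 lost its call without any 1 of the 8 RBE and SSP-25 libraries (adjusted p = 0.050 to 0.20, limma), HOXB8 without any 1 SSP-25 library (0.070 to 0.11), and HOXC13 without control replicate 2 or either LKB1 siRNA library of SSP-25 (0.066 to 0.17). The count was 3 or 4 without any 1 SSP-25 library and 4 without LKB1 siRNA replicate 2 of RBE.

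**Figure D3:**
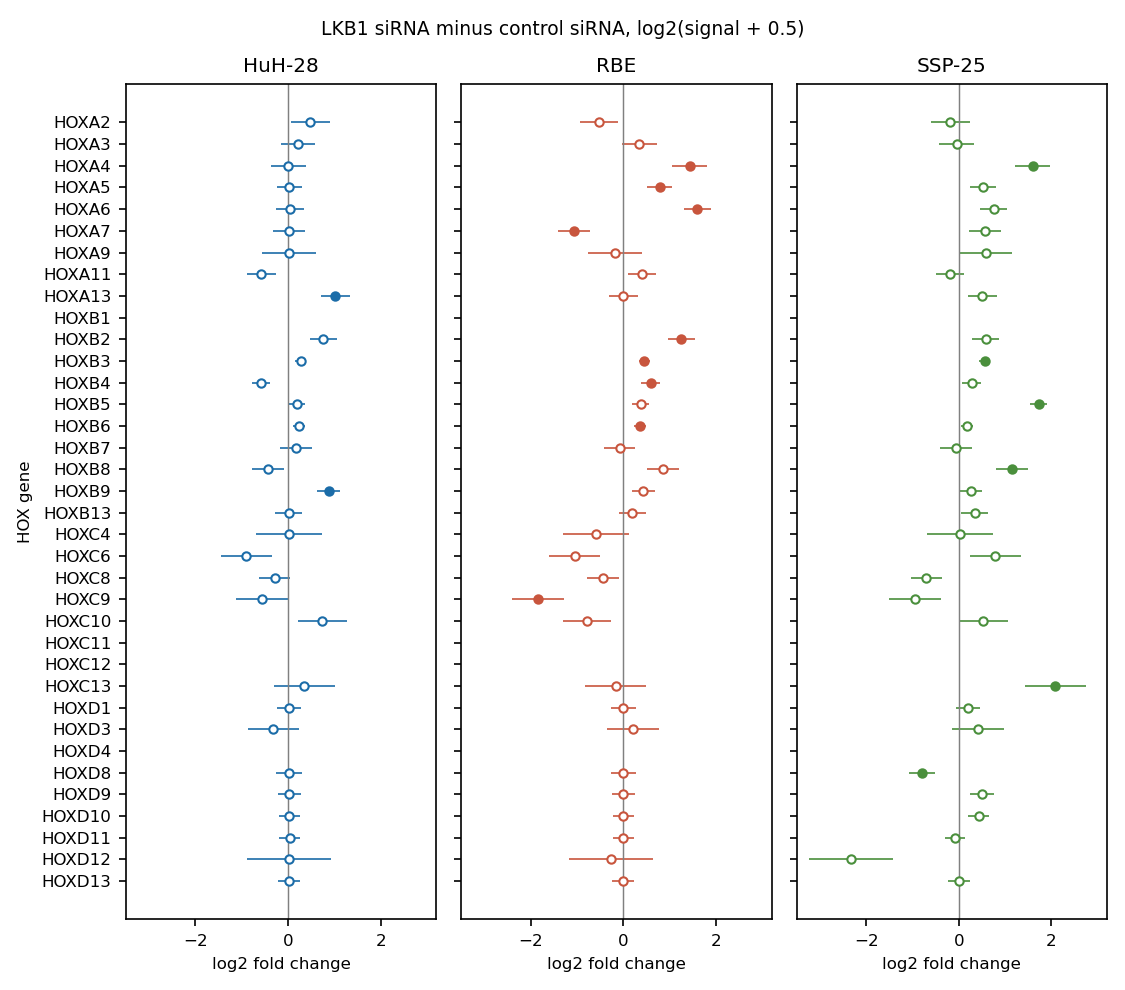
Log2 fold change (LKB1 siRNA minus control siRNA, log2(signal + 0.5)) on the x axis for each HOX gene and line, with bars of 1 SE from the limma fit. Filled points passed (2 in HuH-28, 9 in RBE, 6 in SSP-25), open points did not, and 4 genes too low to test have no point.

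On average over the 3 lines, 10 of 32 passed (52.4% of all genes), 9 higher (27.3% of all genes) and 1 lower (25.2%). The share called was thus below that of all genes in each line and on average. These shares do not show that HOX genes respond less, since they include members near 0 in a line, where little change can be measured. With control siRNA, HuH-28 had 19 of all 36 members near 0. RBE had 13 such members, while SSP-25 had only 4. Whether the shares also differ among expressed genes alone was not tested. The median log2 fold change over the tested members was 0.14, against 0.03 over all genes. By line it was 0.03 (HuH-28), -0.00 (RBE) and 0.38 (SSP-25), against 0.01, 0.01 and 0.02. In the HOXB cluster HOXB2 (0.86 ± 0.17, adjusted p = 0.0017, limma), HOXB5 (0.76 ± 0.10, adjusted p = 0.00014), HOXB9 (0.52 ± 0.14), HOXB3 (0.43 ± 0.07) and HOXB6 (0.26 ± 0.08) rose. HOXB2, HOXB3 and HOXB5 were higher in both LKB1 siRNA libraries than in both controls in each of the 3 lines. In single lines the siRNA groups did not overlap, in either direction, for 57.1% (HuH-28), 72.3% (RBE) and 73.9% (SSP-25) of all genes. The share over the 3 lines together was not counted. HOXB2 was low in RBE (0.591 and 0.0125 against 1.24 and 1.31), and its average includes that line. HOXB7 had 0.01 on average (adjusted p = 0.98, limma). Its values were 220 and 201 against 249 and 228 in HuH-28 and 309 and 363 against 319 and 318 in SSP-25. In the HOXA cluster HOXA5, HOXA6 and HOXA13 rose. HOXA4 was also called higher, but met the signal requirement through LKB1 siRNA libraries alone. HOXC9 fell (-1.12 ± 0.32, adjusted p = 0.014, limma), at values that did not exceed 6.51 in any library. Its siRNA groups overlapped in HuH-28 (1.33 and 0.484 against 0.0181 and 1.08) but not in RBE or SSP-25. The study also lists HOXC9 as lower in each of the 3 lines, with no P-value below 0.05 in any of them. No tested HOXD gene passed on average by limma (also 0 at an unadjusted p below 0.05). This does not show that HOXD genes were unchanged. In HuH-28 and in RBE 7 of 9 HOXD genes were near 0 with control siRNA, and HOXD8 passed as lower in SSP-25. The LKB1 siRNA effect differed between lines for HOXB4 and HOXB5, 2 of 32 by the F test of the interaction, against 28.2% of all genes (1 to 4 with 1 library left out). Of the 10 calls, 7 held whichever library was left out, and HOXA4 was too low to test without 2 of the libraries. HOXA13 lost its call without 9 of the 12 libraries and HOXA5 without 10 (adjusted p up to 0.11 and 0.10). For HOXA13 the 3 that could be left out without loss were HuH-28 control replicate 1, HuH-28 LKB1 siRNA replicate 2 and SSP-25 LKB1 siRNA replicate 1. For HOXA5 the 2 were RBE control replicate 1 and SSP-25 LKB1 siRNA replicate 1.

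**Figure D4:**
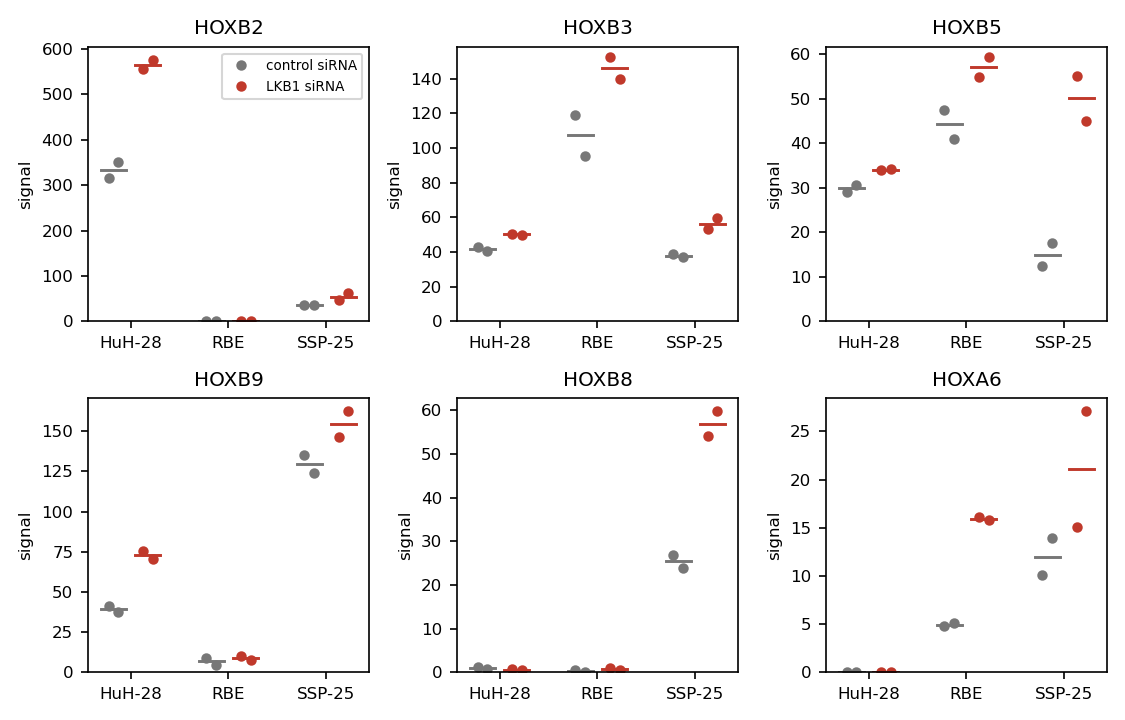
Signal (linear axis from 0) of HOXB2, HOXB3, HOXB5, HOXB9, HOXB8 and HOXA6 in the 12 libraries by line, gray for control and red for LKB1 siRNA, with points for libraries and bars for the mean of 2. HOXB3 is higher with LKB1 siRNA in each line, HOXB5 shows its wide gap in SSP-25 (12.3 and 17.7 against 55.3 and 45.1), and HOXB8 is low outside SSP-25.

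Reads of these genes may be shared, since annotated gene spans overlap, although overlap of their exons was not examined. In GENCODE, on GRCh38, the gene HOXB3 (chr17:48548870-48604912) spans HOXB4 and HOXB5 and overlaps nearly all of HOXB6, HOXB7 (chr17:48607227-48633572) spans HOXB8 and HOXB9, HOXA3 (chr7:27106184-27152581) spans HOXA4, HOXA5 and HOXA6, and HOXD3 (chr2:176136612-176173102) spans HOXD4. HOXC6 (chr12:53990624-54030823) spans HOXC8 and HOXC9 and overlaps HOXC4. HOXD11 (chr2:176104216-176109754), one of the genes high in SSP-25, overlaps its neighbour HOXD10 (chr2:176108790-176119942). Several members also have antisense RNAs, and the sources do not say whether counting used strand, so that reads of the partners cannot be told apart.

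The word GAAGGAA was searched in the 3′ UTRs of all members because an earlier analysis of these data had found it among genes that fell, and it was not chosen on independent data. It occurred once each in the annotated 3′ UTRs of 3 tested HOX genes, 9.38% of 32, against 21.0% of the tested genes with an annotated UTR. The 3 sites are shown with 8 bases on each side, 5′ to 3′ on the gene's strand (reverse on GRCh38 for all 3), with the word in capitals.
HOXA11 (chr7:27181685-27181707): atttccctGAAGGAAccaaagcg
HOXB4 (chr17:48576434-48576456): agcaagaaGAAGGAAgaaagaaa
HOXB6 (chr17:48596327-48596349): agacccggGAAGGAAggctctcg
HOXB6 was higher on average with LKB1 siRNA, HOXB4 was higher in RBE and had -0.59 (adjusted p = 0.051, limma) in HuH-28, and HOXA11 was 128 and 129 against 113 and 112 in SSP-25 (adjusted p = 0.66, limma). None of these 3 genes passed as lower in any line or on average. GCAGTAC, the other word of that analysis, was in no HOX 3′ UTR.

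The HOX partner proteins of the TALE family bind DNA together with HOX proteins, and 5 of the 7 tested rose and 2 fell on average. Over all genes tested 27.3% rose and 25.2% fell on average, which is the background for this and the following lists. Their median log2 fold change was 0.34. MEIS3, one of the MEIS partners, had 294 and 251 against 518 and 406 in HuH-28. The RBE values were 38.8 and 40.4 against 117 and 120, and those of SSP-25 19.0 and 20.4 against 30.8 and 26.5. It rose in each line, by 0.75, 1.57 and 0.53 on the log2 scale (adjusted p = 0.0022, 1.2e-05 and 0.0096, limma). On average MEIS3 (0.95), PBX2 (0.34) and MEIS2 (0.25) rose and PKNOX1 fell (-0.22). Of the 7 genes 2 rose in HuH-28 by limma, with none lower there, 2 rose and 2 fell in RBE, and 4 rose and 1 fell in SSP-25.

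Polycomb genes, whose products silence HOX clusters, gave 6 higher and 14 lower of 29 on average (median -0.09). EZH2, the H3K27 methyltransferase, fell by 0.39 (adjusted p = 7.5e-06, limma), and PHC2 (-0.50) and RYBP (-0.52) fell while PHF1 rose (0.64). MLL complex genes and other HOX activators gave 6 higher and 5 lower of 16 (median 0.03), with PSIP1 at -0.96 and MEN1 at 0.28. Of the retinoic acid genes, which govern the anterior HOX genes in embryos, 7 of 15 tested rose and 1 fell (median 0.24). RARG, a receptor, rose by 0.53 and STRA6, a retinol transporter, by 1.02, while CRABP2 rose in HuH-28 (1.31) and SSP-25 (1.04) and had 0.29 in RBE, where it did not pass. In RBE 1 rose and 2 fell. Of 8 ParaHox, caudal and even-skipped genes 1 was high enough to test, PDX1 (-0.27 on average, adjusted p = 0.17, limma). PDX1 was near 0 in HuH-28 and SSP-25 and fell in RBE, from 22.5 and 23.8 to 13.9 and 11.3 (-0.86, adjusted p = 0.028, limma). Of 8 tested genes that flank the clusters 1 rose and 6 fell, led by SKAP2 (-0.76) and HIBADH (-0.37) beside HOXA. No symbol among the 16 listed HOX cluster noncoding RNAs was matched, and they were not analysed here.

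Markers of cell types moved with LKB1 siRNA in directions that depended on the line. The summed signal of 6 biliary markers was 9457 to 10345 with control and 12887 to 13632 with LKB1 siRNA in HuH-28. For RBE it was 46841 to 50331 against 38411 to 38900, and for SSP-25 15035 to 15306 against 20360 to 21272. On average 2 of 6 biliary genes rose and 1 of 4 hepatocyte genes fell. On the same average 3 of 7 fibroblast and mesenchymal genes rose and 1 fell, and 0 of 4 blood genes passed by limma. Of the blood list CD3E was near 0 in every library, while CD68 was 723 to 1967 over the 12 libraries and CD14 reached 28.8 in SSP-25. The summed hepatocyte signal was 1139 to 1575 over RBE libraries and at most 193 in the other lines. Among mesenchymal genes, COL3A1 was 21708 to 27040 and DCN 1933 to 2719 over HuH-28 libraries. In the other lines they did not exceed 6.47 and 0.426. VIM was instead lower in HuH-28 (19218 to 23296) than in RBE (26934 to 46837) and SSP-25 (37699 to 57948). The part of these markers in the HOX values was not tested.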

How the data were processed

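The table was deposited by the authors as normalized signal in reads per kilobase (RPKB) per gene and library, not counts, so that depth is unknown. Libraries came from the TruSeq RNA kit V2. TopHat 1.2.0 and edgeR, with hg19 and GRCh37, stand in the submitters' processing notes, while the study's methods name NextGENe and RefSeq mRNA. Which of these led to the table is not stated. Of 18815 rows, 17 repeats were left out. Groups follow the sample titles. Signal was analysed as log2(signal + 0.5) with limma 3.58.1 (R 4.3.3) in 1 fit of the 6 groups (6 residual degrees of freedom, intensity trend), over the 16146 genes that reached a signal of 1 in 2 or more libraries. P-values were two-sided and adjusted by Benjamini-Hochberg over all of them. This scale understates the change of low genes. A gene passed at an adjusted p below 0.05.

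Named genes were up to 3 members per cluster with the highest control mean in each line, those with the widest difference between lines, every member that passed for LKB1 siRNA, and up to 4 genes per list by smallest p. Of the members 1, and of the listed genes 1, are not reported here. HOXD9, HOXD10, HOXD12, HOXD13, HOXA11, HOXB4, HOXB7, HOXB13, SERPINA1, TTR, TF and CRABP2 values beyond that were chosen after they were seen. The same holds for the values of COL1A1, COL1A2, COL3A1, DCN, VIM, PDGFRB, ACTA2, CD68 and CD14. The members and gene lists were chosen with earlier results of these data known. On simulated data for the average over lines (200 of 16146 genes changed by 1.5 on the log2 scale) 87% were recovered with 3 false calls. Alternatives were other pseudocounts, filters, normalization, variance settings, blocks and leaving out libraries. Promoter windows are from RefSeq (GRCh38.p14), gene positions and 3′ UTRs from GENCODE on GRCh38, which is not the build of the table.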

Additional observations from a re-analysis of the deposited data

Results flagged for a closer look

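The effect of LKB1 siRNA differed between lines for 2 HOX genes by the limma F test of the interaction, against 28.2% of all genes tested. For HOXB5 (adjusted p = 0.0036) the log2 fold change in SSP-25 was 1.72 ± 0.18 (SE), with 0.19 ± 0.18 in HuH-28 and 0.37 ± 0.18 in RBE. With control siRNA HOXB5 was lowest in SSP-25 (12.3 and 17.7, against 29.2 and 30.6 in HuH-28 and 47.5 and 41 in RBE), and with LKB1 siRNA SSP-25 (55.3 and 45.1) lay with RBE (55 and 59.3). For HOXB4 (adjusted p = 0.027) it was -0.59 ± 0.20 in HuH-28, against 0.59 ± 0.20 (RBE) and 0.28 ± 0.20 (SSP-25). Both HuH-28 libraries with LKB1 siRNA (4.79 and 4.62) were below both controls (7.54 and 7.12), and the reverse held in RBE and SSP-25. The count was 1 without HuH-28 control replicate 1, HuH-28 LKB1 siRNA replicate 2, RBE LKB1 siRNA replicate 1 or either SSP-25 control library, and 4 without RBE control replicate 1.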

How the results depend on the processing

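The counts of HOX genes passing moved by over 1.5 times under some settings. The share of all genes passing was not counted under other settings or with 1 library left out. Whether the HOX share lies below it there was therefore not tested. A pseudocount of 0.1 gave 1 in HuH-28 for LKB1 siRNA. A pseudocount of 1 gave 4 in HuH-28 and 4 for the interaction. A pseudocount of 10 gave 5 in RBE, 12 in SSP-25, 16 on average and 9 for the interaction. Requiring a mean signal of at least 5 left 19 HOX genes to test and not 32, and gave 3 in SSP-25, 19 between lines and 17 for RBE against SSP-25. For the interaction, quantile normalization gave 1 and a fit with no trend gave 8, and no trend gave 10 in SSP-25. With RBE fitted alone 3 passed. The cause was not tested for the others. Detection at 5 gave 5 genes in RBE.

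With 1 library left out at a time, a lone library being assumed to vary like the others, counts ranged from 0 to 3 in HuH-28, 3 to 9 in RBE, 3 to 7 in SSP-25, 7 to 11 on average, 1 to 4 for the interaction, 27 to 31 for lines, 15 to 18 for HuH-28 against RBE, 22 to 24 for HuH-28 against SSP-25 and 22 to 27 for RBE against SSP-25.

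Same-numbered control and LKB1 siRNA libraries deviated together in HuH-28 (r = 0.43 over 12230 genes) but not in RBE (0.0023) or SSP-25 (0.033), so the numbers were not taken as pairs. A replicate block within line gave 4 for the interaction, and the other counts stayed within 1.5 times. In HuH-28, where the numbered libraries deviated together, 3 HOX genes passed with that block and 2 without it. No gene that passed in either setting changed sign. Unknown depth and values near 0 limit the low members.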
